A study of Mus musculus with 8 samples.

Results

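The genes described here encode 9 adaptor and sorting proteins that bind the cytoplasmic tails of LDL receptor family members such as LRP1: Dab2, Snx17, Gulp1, Shc1, Mapk8ip1, Mapk8ip2, Apbb1, Pacsin2 and Numb. They were found by exact gene symbol in a table of 22520 protein-coding genes, where the 9 symbols matched 10 rows, since Dab2 had a second gene identifier listed at 0 in every library. Of the 9 genes, 8 passed the filter on low signals that left 11391 genes for testing, and Mapk8ip2 did not. The choice of genes did not use their values.

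RNA of cells prepared as liver endothelial cells (ECs), the cells that line blood vessels, was sequenced in 4 WT and 4 LRP1 eKO libraries. WT mice were LRP1 f/f; Cdh5-CreER-/- and LRP1 eKO mice were LRP1 f/f; Cdh5-CreER+/-, so that both groups carried floxed Lrp1 alleles and the eKO group alone carried the inducible Cre recombinase, driven by the promoter of the endothelial gene Cdh5. The labels give the cells as liver microvesicular cells, the strain as C57BL/6 and the age as postnatal day 14 for both groups, and ECs were selected with beads that carry an antibody to PECAM-1. When the Cre was induced is not given in the sources used here. Because no group carried the Cre without floxed alleles, an effect of the CreER transgene and an effect of Lrp1 loss cannot be told apart. The labels number the libraries within each genotype without saying that each came from a different mouse, so p-values measure only the spread between these libraries, which may be technical.

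LRP1 is a large endocytic receptor. Its short cytoplasmic tail holds NPxY motifs (asparagine, proline, any residue, tyrosine), which are read by proteins with a phosphotyrosine-binding (PTB) domain or a related fold. Some of these readers gather the receptor into clathrin-coated pits, others return it from endosomes to the cell surface, and others couple it to kinase cascades. The study screened LRP1 eKO cells for factors that ECs secrete, and the same libraries are compared here for RNA of these tail-binding proteins.

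The coding sequence of the mouse Lrp1 tail around its NPxY codons was taken from GENCODE transcript ENSMUST00000049149.14 on GRCm38. Which of the adaptor and sorting proteins bind at which motif was not tested. The stretch lies within chr10:127539052-127539331 on the minus strand, is spliced from exons 88 and 89, and is coding throughout. The capitals mark the codons of the NPxY motifs.
Lrp1 tail: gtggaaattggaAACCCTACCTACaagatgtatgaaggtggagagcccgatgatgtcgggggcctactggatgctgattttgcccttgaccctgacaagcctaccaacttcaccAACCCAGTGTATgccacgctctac
The last 100 codons held 2 such motifs and the 4545 codons of the whole coding sequence held 3. The motifs of the tail start 34 codons apart, and the last starts 41 codons before the end of the protein.

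The values are quantile-normalized signals, a scale that gives all libraries nearly the same distribution. Totals per library were 484445 to 485947, and the depth of the libraries is unknown. WT replicate 4 stood apart from its group, being the WT library farthest from the group median for 61.7% of the tested genes, and LRP1 eKO replicate 2 did so for 37.2% of them. The labels were checked on Lrp1 itself. Its signal was 61.6, 59.0, 56.2 and 85.1 in WT replicates 1 to 4, and 6.01, 2.16, 5.15 and 4.32 in LRP1 eKO replicates 1 to 4. Every eKO library was thus far below every WT library. The eKO mean was 6.74% of the WT mean (log2 fold change -3.66, SE 0.23, limma adjusted p = 2.8e-06).

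Marker lists of the cell types that the preparation could hold were summed in each library. Of 10 pan-endothelial markers, Tek and Erg stayed under a signal of 1 in every library, and none was at 0 in every library. The summed endothelial signal ranged from 49.1 to 51.7 in WT and from 58.1 to 81.8 in LRP1 eKO libraries, with 3 of 8 tested markers called higher and 0 lower. Pecam1, the selection antigen, and Cdh5, whose promoter drives the Cre, were looked up after their values were seen. Pecam1 averaged 2.09 ± 0.42 in WT against 3.02 ± 0.91 in LRP1 eKO (SD, n = 4), and Cdh5 averaged 1.86 ± 0.43 against 3.70 ± 1.34 (SD, n = 4).

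The pan-endothelial sum was below the mesothelial, the stellate and fibroblast, and the hepatocyte sums in every library. Whether the signal is per length is not stated, so the sums are not shares of cells, but these markers do not show that the RNA came mainly from ECs, and the values below are therefore those of the labelled libraries and not of ECs alone. All 7 tested hepatocyte markers fell, with sums of 1494 to 1546 in WT and 616 to 901 in LRP1 eKO libraries, and 4 of 5 tested skeletal muscle markers fell, with sums of 63.5 to 92.7 and 48.0 to 49.2. In a bulk sample, fewer cells of a type and less RNA per cell cannot be told apart. Mesothelial sums were 2238 to 2689 in WT and 2911 to 3223 in LRP1 eKO libraries, with 2 of 6 markers called higher. For stellate cells and fibroblasts the sums were 1330 to 1455 and 1159 to 1409, with 3 of 7 tested markers called lower. Des was counted both in this list and in the muscle list. Neuronal sums were 58.2 to 63.1 and 43.4 to 49.4, with 1 of 2 tested markers called lower. Of the 6 neuronal markers found, 4 stayed under a signal of 1 in every library: Syp, Snap25, Rbfox3 and Elavl4. So did Lrat, Reln and Rgs5 of the stellate and fibroblast list, Ckm, Myh3 and Myh8 of the muscle list, and the hepatocyte gene Tat. Macrophage sums spread most within a group, from 107 to 208 in WT libraries and from 50.4 to 659 in LRP1 eKO libraries. LRP1 eKO replicates 1, 3 and 4, at 659, 603 and 355, were above every WT library. Replicate 2, at 50.4, was below every WT library. The 7 tested macrophage markers changed by 0.57 to 1.29 on the log2 scale, with 1 called higher. The Kupffer cell genes Clec4f and Timd4 stayed under a signal of 1 throughout. Liver sinusoidal endothelial sums were 37.7 to 41.0 and 38.6 to 62.1, with 1 of 5 tested markers called higher and Dnase1l3 under 1 in every library.

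**Figure D1:**
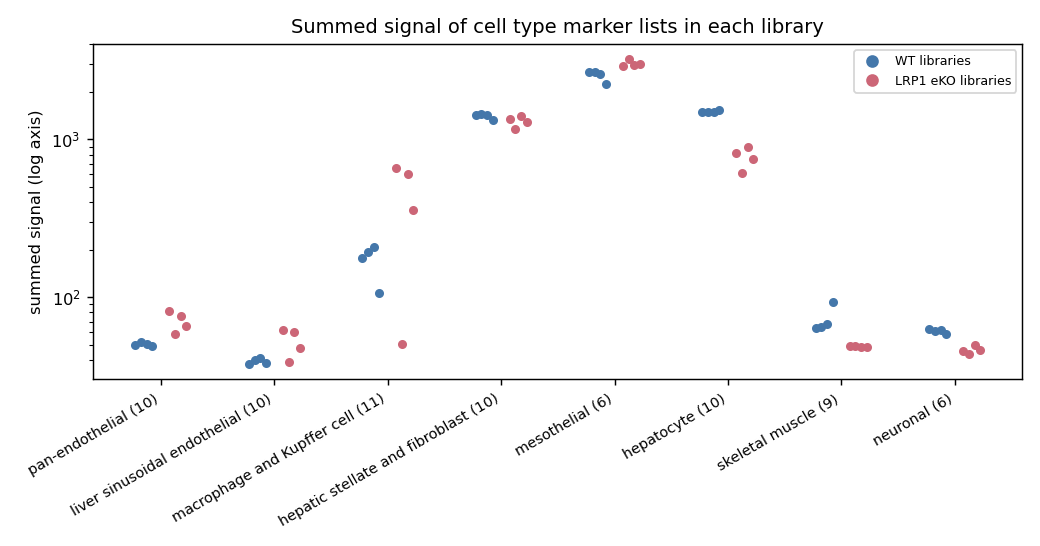
Summed quantile-normalized signal of each cell type marker list (log axis) in the 4 WT and 4 LRP1 eKO libraries, 1 point per library in replicate order, with the number of markers found in brackets. Hepatocyte, skeletal muscle and neuronal sums do not overlap between the groups and are lower in LRP1 eKO. Pan-endothelial and mesothelial sums do not overlap either and are higher in LRP1 eKO. Macrophage sums span 50.4 to 659 within LRP1 eKO.

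Among the adaptor and sorting genes, Shc1 and Snx17 fell in LRP1 eKO libraries, by 23.3% and 12.6% of their WT means, and 0 rose. Dab2, Gulp1, Mapk8ip1, Apbb1, Pacsin2 and Numb, the other 6 tested genes, were not called. A call is a limma adjusted p under 0.05 over all 11391 genes, which 41.2% of them reached, 22.2% as lower and 19% as higher. The calls among these genes, 25% of the 8 tested, were thus no more frequent than among genes at large. None of the 8 changed 2-fold, a size that 1.66% of all tested genes reached together with the adjusted p, 0.869% as higher and 0.79% as lower. The median log2 fold change of the 8 was -0.04, against -0.01 for all tested genes, and the median absolute change was 0.18 against 0.17.

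Shc1 encodes an adaptor that docks on phosphorylated NPxY motifs and recruits GRB2 to start the RAS and MAP kinase cascade. Its gene lies on chr3:89418443-89430027 (GRCm38, plus strand). The Shc1 signal was 139, 141, 133 and 113 in WT replicates 1 to 4, and 105, 95.2, 106 and 98.5 in LRP1 eKO replicates 1 to 4. All 4 eKO libraries were below the lowest WT library, replicate 4, a separation in this direction that 22.5% of all tested genes showed. Shc1 and Snx17 were 2 of 8 genes with groups that did not overlap, against 42.6% of all tested genes. Of all tested genes, 20% had LRP1 eKO above WT without overlap. The mean fell from 132 ± 12.6 to 101 ± 5.08 (SD, n = 4), with a log2 fold change of -0.37 (SE 0.07, 95% interval -0.53 to -0.22, limma adjusted p = 0.00261, exact two-sided permutation p = 0.029, the smallest that 4 libraries against 4 allow). A larger absolute change was found in 17.0% of all tested genes. Without WT replicate 4 and LRP1 eKO replicate 2, which stood apart, the log2 fold change was -0.42 (limma adjusted p = 0.000101). Of 5827 stretches of 50 bases in Shc1 transcripts, 413 also occur in the annotated gene AC123951.1, so reads from 7.09% of the stretches could have been divided between these loci.

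Snx17 encodes a sorting nexin that binds the NPxY region of LRP1 in endosomes and returns the receptor to the cell surface with the Commander complex. It lies on chr5:31193227-31199143 (GRCm38, plus strand). The Snx17 signal was 50.8, 51.7, 53.9 and 54.9 in WT and 47.2, 46.1, 45.7 and 45.7 in LRP1 eKO replicates 1 to 4. The groups did not overlap, and both were tight: the means were 52.8 ± 1.86 and 46.2 ± 0.67 (SD, n = 4). The log2 fold change was -0.19 (SE 0.04, 95% interval -0.28 to -0.10, limma adjusted p = 0.00512, exact two-sided permutation p = 0.029), a size that 44.0% of all tested genes exceeded. Without the libraries that stood apart it was -0.17 (limma adjusted p = 0.006). Exons of Snx17 overlap those of Eif2b4 and Zfp513 on the opposite strand over 11.9% of their bases, and whether counting used strand is not given in the sources used here. On the log2 scale Eif2b4 changed by -0.21 (adjusted p = 0.0993 by limma) and Zfp513 by 0.01 (adjusted p = 0.945), and neither passed the test.

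The summed hepatocyte, skeletal muscle and neuronal markers were lower in LRP1 eKO libraries too, without overlap, beside Shc1 and Snx17. Pan-endothelial and mesothelial sums were higher, also without overlap. The part of these marker sums in the Shc1 and Snx17 decreases was not tested.

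Dab2 encodes an endocytic adaptor whose PTB domain binds NPxY tails and which couples them to clathrin and AP-2. It lies on chr15:6299788-6440712 (GRCm38, plus strand). The Dab2 signal was 176, 180.5, 169 and 134 in WT and 190.2, 175, 196 and 168 in LRP1 eKO replicates 1 to 4. LRP1 eKO replicates 2 and 4 lay inside the WT range, and all 4 lay above the WT mean. The means were 165 ± 21.3 and 182 ± 12.9 (SD, n = 4), with a log2 fold change of 0.15 (SE 0.09, 95% interval -0.06 to 0.36, limma adjusted p = 0.216, exact two-sided permutation p = 0.257). Without WT replicate 4 it was 0.05, so most of the difference rested on that library.

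Numb encodes a PTB-domain endocytic adaptor known as an inhibitor of Notch signalling. Its gene lies on chr12:83794034-83921934 (GRCm38, minus strand). The Numb signal was 18.9, 21.3, 20.7 and 16.5 in WT and 24.2, 20.7, 22.7 and 21.1 in LRP1 eKO replicates 1 to 4. WT replicate 4 was again the lowest, and the groups overlapped in LRP1 eKO replicates 2 and 4. The means were 19.4 ± 2.13 and 22.2 ± 1.599 (SD, n = 4), with a log2 fold change of 0.19 (SE 0.08, 95% interval 0.01 to 0.37). Numb was the only gene of the 8 with an unadjusted limma p under 0.05 (0.0415) that failed the adjustment (limma adjusted p = 0.0857, exact two-sided permutation p = 0.114). Without WT replicate 4 its log2 fold change was 0.12 (limma adjusted p = 0.155).

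Gulp1 encodes an adaptor of the engulfment pathway that links LRP1 and other receptors to the uptake of dying cells. It lies on chr1:44551511-44796838 (GRCm38, plus strand). The Gulp1 signal was 11.4, 11.2, 10.6 and 7.86 in WT and 10.97, 14.5, 10.98 and 11.6 in LRP1 eKO replicates 1 to 4. A low WT replicate 4 and a high LRP1 eKO replicate 2 set most of the distance between the means, 10.3 ± 1.63 and 12.02 ± 1.67 (SD, n = 4). The log2 fold change was 0.21 (SE 0.12, 95% interval -0.05 to 0.48, limma adjusted p = 0.175), and without both of these libraries it was 0.02 (limma adjusted p = 0.801).

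Pacsin2 encodes an F-BAR protein that bends membranes, binds dynamin and takes part in forming caveolae. Its position is chr15:83375607-83464606 (GRCm38, minus strand). The Pacsin2 signal was 97.3, 97.3, 92.1 and 80.2 in WT and 93.9, 97.4, 97.7 and 94.0 in LRP1 eKO replicates 1 to 4. Apart from WT replicate 4, all libraries lay close together, and Pacsin2 had the smallest change of the 8 genes. The means were 91.7 ± 8.06 and 95.8 ± 2.09 (SD, n = 4), with a log2 fold change of 0.07 (SE 0.06, 95% interval -0.07 to 0.20, limma adjusted p = 0.417). Without both libraries that stood apart the sign turned, to -0.005 (limma adjusted p = 0.926).

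Mapk8ip1 and Mapk8ip2 encode JIP1 and JIP2, scaffolds that hold kinases of the JNK cascade together and connect cargo to kinesin. Mapk8ip1 lies on chr2:92383676-92401263 (GRCm38, minus strand). The Mapk8ip1 signal was 8.66, 8.84, 8.34 and 10.1 in WT and 6.90, 9.66, 6.87 and 8.30 in LRP1 eKO replicates 1 to 4. LRP1 eKO replicates 1, 3 and 4 were below every WT library, while replicate 2 was above 3 of the 4. The means were 8.99 ± 0.79 and 7.93 ± 1.33 (SD, n = 4), with a log2 fold change of -0.17 (SE 0.10, 95% interval -0.40 to 0.06, limma adjusted p = 0.206, exact two-sided permutation p = 0.2). Without LRP1 eKO replicate 2 the log2 fold change was -0.26 and passed the threshold (limma adjusted p = 0.0405), whereas without LRP1 eKO replicate 3, LRP1 eKO replicate 1 or WT replicate 4 it was -0.11 to -0.12 (limma adjusted p = 0.433, 0.425 and 0.393). That library also had the lowest macrophage marker sum, 50.4 against 355 to 659 in the other LRP1 eKO libraries. Whether the makeup of the libraries had a part in the Mapk8ip1 values was not tested.

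Mapk8ip2, on chr15:89453913-89464468 (GRCm38, plus strand), was barely detected. Its signal was 0.020, 0.013, 0.016 and 0.021 in WT and 0.037, 0.016, 0.037 and 0 in LRP1 eKO replicates 1 to 4. The groups overlapped fully, and no change was detectable at these signals (log2 fold change 0.01 with no filter on low signals, limma adjusted p = 0.751).

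Apbb1 encodes FE65, a PTB-domain protein that bridges LRP1 and the amyloid precursor protein. It lies on chr7:105558483-105581653 (GRCm38, minus strand). The Apbb1 signal was 8.61, 7.94, 7.61 and 9.81 in WT and 7.12, 8.20, 7.21 and 7.48 in LRP1 eKO replicates 1 to 4. LRP1 eKO replicates 1, 3 and 4 were below every WT library, and replicate 2 was above WT replicates 2 and 3. The means were 8.49 ± 0.97 and 7.50 ± 0.49 (SD, n = 4), with a log2 fold change of -0.16 (SE 0.08, 95% interval -0.33 to 0.02, limma adjusted p = 0.138, exact two-sided permutation p = 0.114). Without WT replicate 4 it was -0.09 (limma adjusted p = 0.266).

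**Figure D2:**
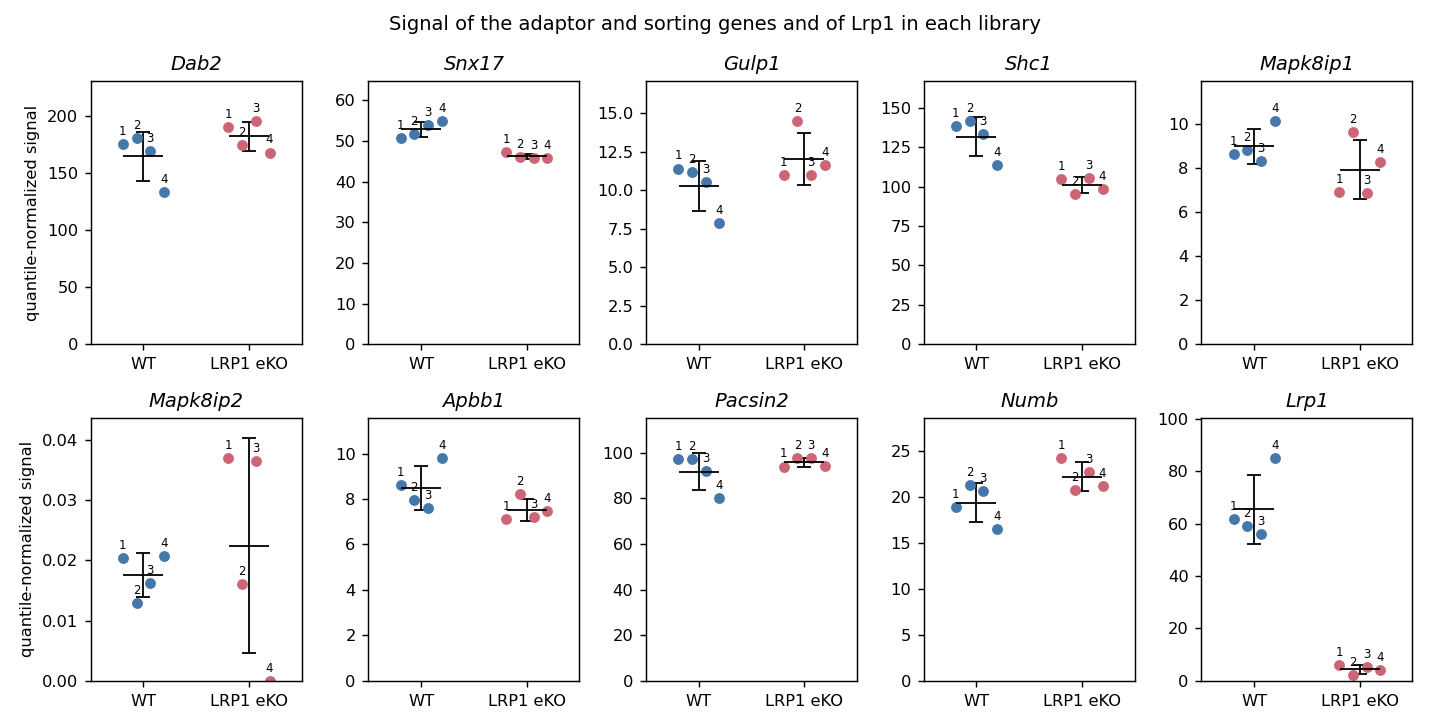
Quantile-normalized signal of the 9 adaptor and sorting genes and of Lrp1 in the 4 WT and 4 LRP1 eKO libraries. Points are libraries with their replicate number, and bars give the mean and SD. Shc1 and Snx17 do not overlap between the groups, and WT replicate 4 lies at the low end for Dab2, Gulp1, Shc1, Pacsin2 and Numb.

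WT replicate 4 was the WT library farthest from the group median for 8 of the 8 tested genes. It was the lowest WT library for 5 of them and the highest for 3, Snx17, Mapk8ip1 and Apbb1. LRP1 eKO replicate 2 was the farthest eKO library for 4, Gulp1, Shc1, Mapk8ip1 and Apbb1. Among the 6 tested genes without a call, the lowest 95% limit was that of Mapk8ip1, a change of -24.2% in signal + 1, and the highest was that of Gulp1, at 39.6%, while the interval of Pacsin2 ran from -4.93% to 15.3%. The table gives 1 value per gene, so isoforms were not separated, although GENCODE M21 lists between 2 transcripts (Mapk8ip2) and 21 (Apbb1) for these genes.

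**Figure D3:**
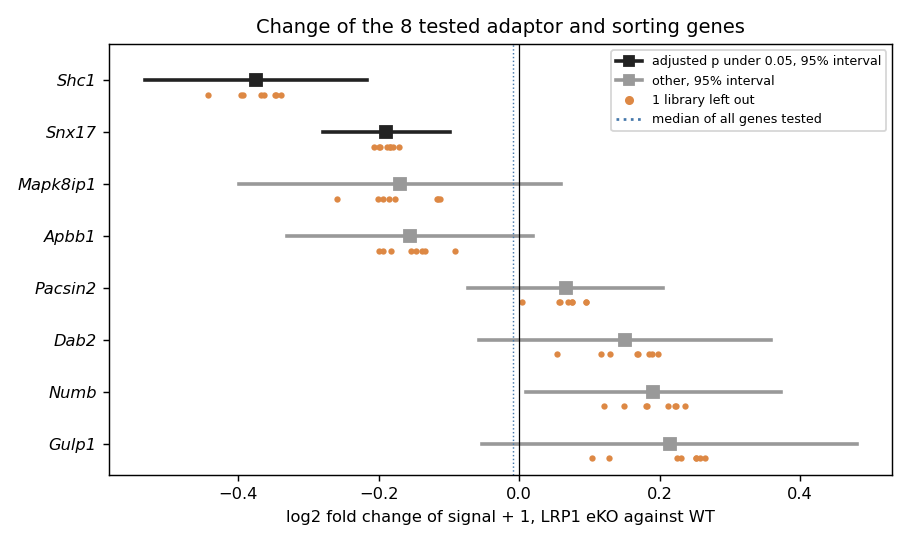
Log2 fold change of signal + 1, LRP1 eKO against WT, for the 8 tested genes, with squares for the fit on all 8 libraries, bars for 95% intervals, small points for fits with 1 library left out, and a dotted line for the median of all tested genes (-0.01). Shc1, Snx17, Mapk8ip1 and Apbb1 stay below 0 in every fit shown, and the Pacsin2 points reach down to 0.0035.

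Close relatives of these genes are set beside them. A test of the difference is not reported here, since the pairs were chosen after values were seen. Mapk8ip3, which encodes the related scaffold JIP3, had a log2 fold change of 0.53 against -0.17 for Mapk8ip1. Snx27, a sorting nexin that also recognizes NPxY tails, had 0.29 against -0.19 for Snx17. Of the FE65 relatives, Apbb2 had 0.28 (limma adjusted p = 0.0284) and Apbb3 -0.32, against -0.16 for Apbb1. Numbl was close to Numb, with 0.18 and 0.19, and Pacsin3 to Pacsin2, with 0.08 and 0.07. Shc2 had 0.15 (limma adjusted p = 0.293) against -0.37 for Shc1.

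Genes that work with these proteins were taken from 11 lists by known role, 150 genes in all, of which 149 were in the table and 132 were tested. Of these, 50 rose, 11 fell and 71 were not called, so that 46.2% were called, against 41.2% of all tested genes. Their median log2 fold change was 0.11, against -0.01 for all tested genes, and 0 also passed the 2-fold threshold on signal + 1. That scale understates changes of low genes such as Pid1, whose mean signals were 2.18 in WT and 4.42 in LRP1 eKO.

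The clathrin coat and AP-2 list, which holds the machinery that DAB2 and NUMB engage, had 15 higher and 1 lower of 22 tested genes, a share of 72.7% called and a median of 0.22. Ap2a2, a large AP-2 subunit, rose from 59.7 ± 4.66 to 78.6 ± 2.62 (SD, n = 4, log2 fold change 0.39, limma adjusted p = 0.000737). Eps15, a scaffold of the coated pit, rose from 17.9 ± 1.08 to 22.9 ± 1.01 (SD, n = 4, log2 fold change 0.34, limma adjusted p = 0.00127). The small subunit gene Ap2s1 went the other way. Its signal was 213, 211, 211 and 259 in WT and 170, 165, 160 and 169 in LRP1 eKO replicates 1 to 4 (log2 fold change -0.42, limma adjusted p = 0.00107), with WT replicate 4 far above its group.

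Dynamin, F-BAR and caveolar genes, the partners of PACSIN2, held 9 higher and 3 lower of 17 tested, with 70.6% called and a median of 0.20. Ehd3, whose protein tubulates recycling endosomes, had the largest decrease of all partner genes. Its signal was 29.8, 29.5, 28.2 and 28.8 in WT and 15.3, 14.8, 15.99 and 14.7 in LRP1 eKO replicates 1 to 4 (log2 fold change -0.89, SE 0.05, limma adjusted p = 7.93e-07). Its relative Ehd1 rose from 63.7 ± 3.73 to 81.9 ± 6.45 (SD, n = 4, log2 fold change 0.36, limma adjusted p = 0.00209). Among caveolar genes, Cav2 rose from 9.21 ± 1.35 to 14.5 ± 1.67 (SD, n = 4, log2 fold change 0.61, limma adjusted p = 0.00171), and Sdpr, which encodes cavin 2, fell from 252 ± 30.2 to 169 ± 4.62 (SD, n = 4, log2 fold change -0.56, limma adjusted p = 0.000494).

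Signalling partners of SHC1 had 6 higher and 1 lower of 12 tested and a median of 0.18, although Shc1 itself fell. The share called was 58.3%, against 41.2% of all tested genes, 19% as higher and 22.2% as lower. Map2k1, the kinase MEK1, rose from 50.8 ± 2.45 to 64.3 ± 1.38 (SD, n = 4, log2 fold change 0.33, limma adjusted p = 0.00041), and the docking protein gene Gab2 rose from 6.26 ± 0.38 to 7.81 ± 0.44 (SD, n = 4, limma adjusted p = 0.00543).

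In the JNK scaffold list, 5 genes were higher and 1 was lower of 12 tested, or 50% called, with a median of 0.12. Mapk8ip3 rose from 13.4 ± 1.77 to 19.7 ± 1.61 (SD, n = 4, limma adjusted p = 0.00155), and the kinesin light chain gene Klc1 rose from 61.1 ± 3.29 to 79.0 ± 6.66 (SD, n = 4, log2 fold change 0.36, limma adjusted p = 0.00188). Map3k12, a kinase bound by these scaffolds, fell from 7.24 ± 0.42 to 6.09 ± 0.49 (SD, n = 4, log2 fold change -0.22, limma adjusted p = 0.0254) with groups that overlapped.

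The Commander list, the recycling partners of SNX17, had 2 higher and 2 lower of 16 tested genes, 25% called, and a median of -0.08. Fam45a (DENND10) rose from 10.9 ± 0.82 to 14.99 ± 0.40 (SD, n = 4, log2 fold change 0.43, limma adjusted p = 0.000369) and Ccdc93 rose from 6.68 ± 0.18 to 8.18 ± 0.64 (SD, n = 4, log2 fold change 0.26, limma adjusted p = 0.00794). Commd9 fell from 27.3 ± 1.79 to 22.7 ± 2.23 (SD, n = 4, log2 fold change -0.25, limma adjusted p = 0.0206), with overlap, and Ccdc22 fell from 9.77 ± 1.46 to 7.89 ± 0.53 (SD, n = 4, log2 fold change -0.27, limma adjusted p = 0.0386). The list of retromer, the other endosomal recycling complex, and sorting nexins had 1 called gene of 10, or 10%. It was the sorting nexin gene Snx27, also counted with the further LRP1 tail partners. Snx27 rose from 7.50 ± 0.77 to 9.38 ± 0.61 (SD, n = 4, limma adjusted p = 0.0133), and the other genes of the list were not called.

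Other PTB-domain proteins had 4 higher and 1 lower of 15 tested, 33.3% called. Pid1, which encodes a PTB-domain protein known to bind LRP1, showed the largest rise among them. Its signal was 2.06, 2.36, 2.16 and 2.15 in WT and 5.02, 3.23, 4.82 and 4.62 in LRP1 eKO replicates 1 to 4 (log2 fold change 0.76, SE 0.11, limma adjusted p = 0.000504). The mean in eKO libraries was 4.42 ± 0.81 against 2.18 ± 0.13 (SD, n = 4), and replicate 2 was the lowest eKO library. Numbl rose from 21.3 ± 0.42 to 24.3 ± 1.23 (SD, n = 4, limma adjusted p = 0.013), and Apbb3 fell from 5.46 ± 0.70 to 4.14 ± 0.22 (SD, n = 4, limma adjusted p = 0.00946). Further reported partners of the LRP1 tail had 5 higher and 0 lower of 10 tested, or 50% called, with a median of 0.20. They were led by Ptpn11, the phosphatase SHP2, which rose from 30.8 ± 2.87 to 38.8 ± 1.39 (SD, n = 4, log2 fold change 0.33, limma adjusted p = 0.00385).

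Of the NUMB partners, 3 were higher and 1 was lower of 7 tested, or 57.1% called. The ubiquitin ligase gene Lnx1 fell from 6.10 ± 0.56 to 3.65 ± 0.92 (SD, n = 4, log2 fold change -0.63, limma adjusted p = 0.00533), while its relative Lnx2 rose from 3.53 ± 0.05 to 4.33 ± 0.46 (SD, n = 4, limma adjusted p = 0.0247) and the polarity gene Pard3 rose from 10.9 ± 0.62 to 12.5 ± 0.51 (SD, n = 4, limma adjusted p = 0.0251). Engulfment partners of GULP1 had 1 higher and 1 lower of 6 tested, or 33.3% called. Rac1 rose from 216 ± 11.1 to 235 ± 3.48 (SD, n = 4, limma adjusted p = 0.0499), close to the threshold, and the engulfment receptor gene Pear1 fell from 33.8 ± 2.96 to 27.2 ± 2.62 (SD, n = 4, limma adjusted p = 0.0126). None of the 7 tested APP and FE65 partners was called by limma, and their changes ranged from -0.17 to 0.17 on the log2 scale.

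**Figure D4:**
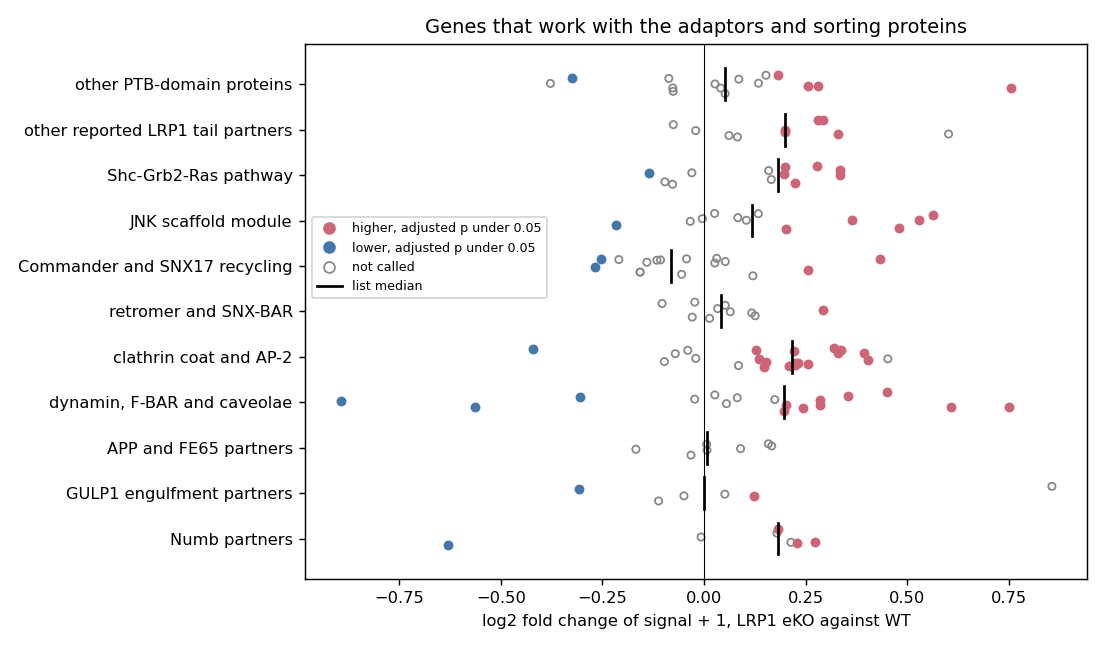
Log2 fold change of signal + 1, LRP1 eKO against WT, of each tested gene in 11 lists of genes that work with the adaptors, 1 point per gene. Filled points passed a limma adjusted p under 0.05, and the black bar is the median of each list. The clathrin list holds 15 higher genes and 1 lower, and the APP and FE65 list holds 0 called genes.

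Without LRP1 eKO replicate 3 the partner genes numbered 33 higher and 7 lower, or 30.3% called against 32.6% of all genes then tested, and without LRP1 eKO replicate 4 they numbered 36 and 7, or 32.6% against 33.1%, so that the share called was no longer above that of all genes. In the clathrin and AP-2 list, 8 were higher and 1 was lower without LRP1 eKO replicate 3, or 40.9%. Without that library, 33.3% of the SHC1 signalling list, 33.3% of the JNK scaffold list and 28.6% of the NUMB partners were called. The shares were 40% for the further LRP1 tail partners and 58.8% for the dynamin, F-BAR and caveolar list. The marker sums that moved between the groups lie beside these counts as well, and their part in them was not tested.

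The genes whose pattern over the 8 libraries was most like that of Shc1, the adaptor gene with the smallest adjusted p, were sought by the root mean square difference of centred log2(signal + 1). The closest was Cdh11, a cadherin of mesenchymal cells, with a difference of 0.03, and its signal averaged 51.3 ± 4.76 in WT against 39.5 ± 2.18 in LRP1 eKO (SD, n = 4). Next were Sez6l, with a difference of 0.03, and Aspm, a spindle gene, with 0.04, whereas the median over all tested genes was 0.24. These genes were picked for the smallest differences, so their place below that median follows from the choice. Sez6l had a signal of 34.6 ± 3.39 and 27.0 ± 2.17 (SD, n = 4), and Aspm had 1.38 ± 0.25 and 0.78 ± 0.05 (SD, n = 4).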

How the data were processed

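RNA sequencing of cells prepared as liver ECs was analysed in 4 WT and 4 LRP1 eKO libraries, grouped by the genotype in the labels. The authors deposited 1 table, which holds the quantile-normalized signal of 22520 protein-coding genes in each library. Their methods describe trimming with trimGalore, mapping to mm10 with STAR and counting with featureCounts, whereas their processing notes name TopHat2 and Cufflinks. The unit before quantile normalization and the use of strand in counting are not given in the sources used here. Levels were therefore not compared between genes, except that marker sums were set beside each other, which gives no shares of cells. A shift common to all genes would have been removed by the normalization. Depth is unknown, so errors rest on the spread between libraries.

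From the deposited signal, log2(signal + 1) was fitted with limma 3.58.1 (R 4.3.3), by genotype alone and with trended variances. The fit held the 11391 genes that reached a signal of 1 in 4 or more of the 8 libraries, and p-values were adjusted over them by Benjamini-Hochberg. Mapk8ip2 was fitted without the filter. Fold changes are on this scale and understate changes of low genes. Exact two-sided permutation tests of the mean log2 signal were computed for single genes. Means ± SD are of the signal. The calculation was tested on simulated data.

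Named were all 9 genes and Lrp1, in each partner list up to 2 called genes per direction, by adjusted p, and the 3 genes most like the adaptor gene with the smallest adjusted p; 1 gene that this rule names is not reported here, genes named outside it are marked in the text, and overlapping genes were named for their position. The genes and lists were chosen with earlier results of these data on other genes known. Positions and transcripts were taken from GENCODE M21 on GRCm38 (mm10), and figures were drawn with matplotlib 3.10.9. As alternatives, the pseudocount was set to 0.1 or 5, the filter was dropped or replaced by a mean signal of at least 5, and limma was run untrended, robustly, with array weights or with replicate numbers as a block. Libraries were also centred on their trimmed means (30% cut per end) or left out, the study's 2-fold threshold was added, and arithmetic means were compared as ratios.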

Additional observations from a re-analysis of the deposited data

Results flagged for a closer look

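In a group of 4 libraries, the gap between the most distant library and its nearest neighbour was set against the whole range of the group, and a share above Dixon's critical value was taken as a library far from the others. Among 74 groups examined, 2 held such a library, where chance alone would give 3.7. Ap2s1, the small AP-2 subunit gene, was high in WT replicate 4, with a share of 0.957. Ccdc93, a Commander subunit gene, was high in LRP1 eKO replicate 2, with a share of 0.835.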

How the results depend on the processing

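Under the 18 alternatives that gave an adjusted p, Shc1 and Snx17 remained called lower at an adjusted p under 0.05, with changes of -0.44 to -0.34 and -0.21 to -0.17 on the log2 scale and adjusted p by limma of 2.61e-05 to 0.0106 and 0.00137 to 0.0234. With the 2-fold threshold added on signal + 1, 0 adaptor genes were called lower and 0 higher, and 0 partner genes in either direction. Leaving out each library in turn gave 2 to 3 adaptor genes lower and 0 to 0 higher, 33 to 51 partner genes higher and 7 to 16 lower, and an Lrp1 change of -3.80 to -3.42. The third adaptor gene called lower without LRP1 eKO replicate 2 was Mapk8ip1. Leaving out both WT replicate 4 and LRP1 eKO replicate 2, an alternative chosen after seeing the data, gave 3 adaptor genes lower, 48 partner genes higher and 13 lower, a Mapk8ip1 change of -0.21 (adjusted p = 0.0469 by limma) and a reversed Pacsin2 change of -0.00487. Without single libraries Pacsin2 ranged from 0.00349 to 0.0954, and Mapk8ip2 from 0.0173 without LRP1 eKO replicate 4 to a reversed -0.000205 without LRP1 eKO replicate 1, and its ratio of arithmetic means was 0.35 on the log2 scale without a pseudocount. The cause of these changes was not tested. Mapk8ip2 could not be tested at a minimum mean signal of 5, since it was below that minimum. Lrp1 moved most with the pseudocount, from -3.93 to -2.91. Deviations from the group means correlated between libraries of the same replicate number at -0.09, -0.13, 0.18 and 0.04 for numbers 1 to 4. With 4 libraries per group, these values cannot show whether libraries of the same number were paired. With the replicate number as a block, 2 adaptor genes were called lower, and partner genes numbered 45 higher and 11 lower. The block gave limma adjusted p of 0.00504 for Shc1 and 0.0234 for Snx17, and 1975 genes higher and 2210 lower in all, against 2164 and 2526 without it. The unknown depth leaves counting error at low signals, such as that of Mapk8ip2, unmeasured.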

Other observations

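The AP-2 adaptor complex, which links DAB2 and NUMB to clathrin, is built from a few subunits, and their genes were looked up after values were seen. The large and medium subunit genes rose in LRP1 eKO libraries. Ap2a1 rose from 46.6 ± 4.39 to 53.9 ± 2.46 (SD, n = 4, log2 fold change 0.21, limma adjusted p = 0.0349), and Ap2b1 rose from 38.8 ± 3.56 to 48.6 ± 0.89 (SD, n = 4, log2 fold change 0.32, limma adjusted p = 0.00351). Ap2m1 rose from 156 ± 6.26 to 171 ± 4.78 (SD, n = 4, log2 fold change 0.13, limma adjusted p = 0.037). Of the clathrin chains, the heavy chain gene Cltc rose from 105 ± 6.34 to 123 ± 1.74 (SD, n = 4, log2 fold change 0.22, limma adjusted p = 0.00576), and so did the light chain gene Cltb, from 73.3 ± 1.57 to 81.7 ± 2.83 (SD, n = 4, log2 fold change 0.15, limma adjusted p = 0.0143). The other light chain gene, Clta, was at 199 ± 8.41 and 189.5 ± 9.03 (SD, n = 4, log2 fold change -0.07, limma adjusted p = 0.263).

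The caveolar coat genes were also looked up after values were seen. Cav1, the main caveolin, rose from 273 ± 54.2 to 454 ± 53.6 (SD, n = 4, log2 fold change 0.75, limma adjusted p = 0.00285), and Ptrf, which encodes cavin 1, rose from 129 ± 5.81 to 148 ± 10.5 (SD, n = 4, log2 fold change 0.20, limma adjusted p = 0.0205). Both moved in the direction of Cav2. Prkcdbp, which encodes cavin 3, fell from 125 ± 3.85 to 101 ± 6.02 (SD, n = 4, log2 fold change -0.30, limma adjusted p = 0.00119), the direction of Sdpr. Pan-endothelial and mesothelial marker sums were higher in LRP1 eKO libraries, and fibroblast marker sums overlapped between the groups. The part of these sums in the caveolar values was not tested.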
